A study of Mus musculus with 8 samples.

Results

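The genes described here are ATF4 and the serine and folate one-carbon enzymes, 10 genes chosen by name: Phgdh, Psat1, Psph, Shmt1, Shmt2, Mthfd1, Mthfd2, Atf4, Asns and Chac1. They were measured in regulatory T cells, which hold other immune cells in check, sorted as CD4+CD25+ cells from spleen and peripheral lymph nodes. The cells came from CD4(cre)Raptor(fl/fl) mice, called RaptorKO below (n = 4 arrays), and from WT mice (n = 4 arrays), both on a C57Bl/6J background and without treatment; the labels give no age. A Cre driven by Cd4 deletes floxed Rptor, the gene of the mTORC1 scaffold Raptor, in the whole T cell lineage and not in regulatory T cells alone, and the sort did not use Foxp3. Of the 10 genes, 9 had at least 1 probe set (a group of probes read as 1 value) assigned to that gene alone, out of 17097 genes with such a probe set. Mthfd2, the mitochondrial methylene-tetrahydrofolate dehydrogenase, was listed only on 2 probe sets shared with another gene and has no value here. A gene is represented by its probe set with the highest mean over the 8 arrays.

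Serine is made from a glycolytic intermediate by Phgdh, Psat1 and Psph in sequence, and the Shmt enzymes then pass a carbon unit from serine to tetrahydrofolate, from which the Mthfd enzymes supply formate for purine and thymidylate synthesis. ATF4 is a transcription factor whose mRNA is translated when eIF2 is phosphorylated, the integrated stress response, and also downstream of mTORC1. It is known to activate the genes of serine synthesis, Mthfd2, Asns and Chac1, so its activity need not follow its own transcript level.

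Values are log2 intensities, and levels of different probe sets were not compared. The labels were checked first. Rptor read 6.63, 6.47, 6.50 and 6.95 in RaptorKO 1 to 4, against 6.83, 6.85, 7.03 and 6.75 in WT 1 to 4. That difference (-0.23, SE 0.12) did not pass (limma adjusted p = 0.491), and where the probes lie relative to the deleted part is not known here, so it does not check the genotype. The 7 markers of CD4 T cells and regulatory T cells, Foxp3 and Il2ra among them, were bright on every array, with a mean between 10.60 and 10.73 in RaptorKO and between 10.62 and 10.74 in WT. Of 13 myeloid markers, 9 passed a filter on dim signal, which asked for a value above the 40th percentile of its array on 4 or more of the 8 arrays, and 12 of 13 had a higher mean in RaptorKO. The myeloid mean ranged from 5.42 to 6.12 in RaptorKO and from 4.89 to 5.71 in WT, while Itgam and Adgre1 were under that percentile on all arrays. Both CD8 T cell markers, Cd8a and Cd8b1, had a lower mean in RaptorKO, with an average between 6.08 and 7.03 in RaptorKO and between 6.32 and 8.07 in WT. The B cell, NK cell and red cell markers averaged 6.14, 4.55 and 7.05 in RaptorKO, against 5.83, 4.55 and 6.54 in WT. The part of these other cells in the results below was not tested. Xist, the transcript that silences an X chromosome in females, was high on the arrays of replicates 1 and 2 (10.88 to 11.18) and low on those of replicates 3 and 4 (5.04 to 5.62) in either genotype, so changes are also given inside each of these 2 array sets.

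Of the 9 genes with a value, 7 passed the filter on dim signal, all on 8 of 8 arrays, and Asns and Chac1 did not. RaptorKO was compared with WT by limma over all 11413 genes that passed, and a gene changed if its Benjamini-Hochberg adjusted p was under 0.05. Psat1 was the only one of the 7 that changed, against 1.96% of all tested genes (1.14% lower and 0.824% higher in RaptorKO). The serine synthesis enzymes were all lower in RaptorKO by their means and the folate enzymes Shmt1, Shmt2 and Mthfd1 all higher. The unadjusted p was under 0.05 for 4 of the 7 (Psat1, Psph, Phgdh and Shmt1), against 13% of all tested genes, and the groups did not overlap for 2 of the 7 (Psat1 and Shmt1), against 8.82%. The median change over the 7 genes was -0.040, beside -0.0092 over all tested genes.

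**Figure D1:**
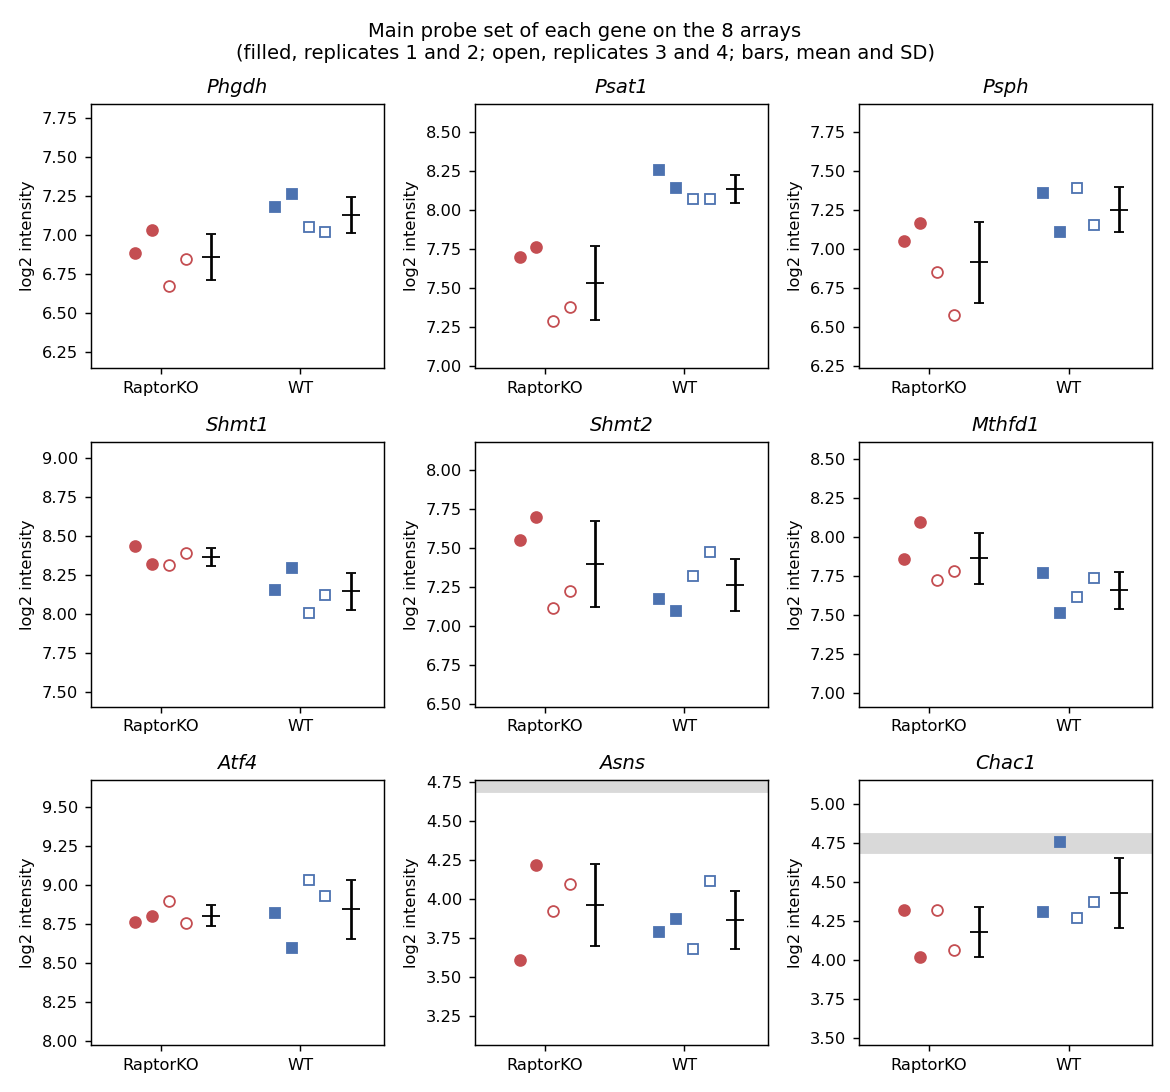
Log2 intensity of the main probe set of the 9 measured genes on each array (y axes all span the same log2 distance), with RaptorKO left of WT, filled points for replicates 1 and 2, open points for replicates 3 and 4, and the mean with SD beside each group (n = 4). The grey band is the range of the 8 arrays' 40th percentiles, 4.69 to 4.81; Psat1 shows the widest separation, and Asns and Chac1 lie under or at the band.

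Psat1, the phosphoserine aminotransferase at the middle step of serine synthesis, fell in RaptorKO. Its single probe set read 7.70, 7.77, 7.29 and 7.38 in RaptorKO 1 to 4, against 8.26, 8.14, 8.07 and 8.07 in WT 1 to 4. Every RaptorKO array lay below every WT array, and the WT arrays were close together. The means were 7.53 ± 0.24 in RaptorKO and 8.14 ± 0.089 in WT (SD, n = 4 each), a change of -0.60 (SE 0.12, limma adjusted p = 0.0304), or 1.52-fold higher in WT. By p Psat1 was at position 159 of the 11413 genes, and 80 of the genes that changed fell by more. In whole-population RNA such as this, fewer cells of a type and less RNA per cell cannot be told apart. Inside the first array set (replicates 1 and 2) the change was -0.47, inside the second (replicates 3 and 4) it was -0.74, and the test of their difference did not pass (-0.27, limma adjusted p = 0.551). Leaving out single arrays, the call was kept without RaptorKO 1 (-0.66, adjusted p = 0.0437) and without RaptorKO 2 (-0.68, adjusted p = 0.0188). It ended without RaptorKO 3 (-0.52, adjusted p = 0.0737) or RaptorKO 4 (-0.55, adjusted p = 0.0854), and without WT 1 (-0.56, adjusted p = 0.105). It ended too, with a change about as large as over all arrays, without WT 2 (-0.60, adjusted p = 0.0715), WT 3 (-0.63, adjusted p = 0.0747) or WT 4 (-0.63, adjusted p = 0.0778). The call also ended when every probe set was tested separately (adjusted p = 0.0536) and inside either array set alone (limma adjusted p = 0.33 and 0.0509). It was kept with a term for the 2 array sets (-0.60, SE 0.10, limma adjusted p = 0.0107).

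The promoter sequence of Psat1 is given because it is the gene that changed. RefSeq (GRCm38.p6) holds 2 start sites for Psat1, and the windows from 250 bases before to 50 bases after each of the 11 start sites of the 10 genes were searched on both strands for the core of the C/EBP-ATF response element to which ATF4 binds (TGATGNAA), the cAMP response element (TGACGTCA), the core of the antioxidant response element (TGACNNNGC) and the CCAAT box (CCAAT). Neither Psat1 window held one of the first 3 motifs, and the upstream window held 3 CCAAT boxes, shown in capitals, which begin 36 and 6 bases before the start and at base 24 after it.
Psat1 promoter (chr19:15925010-15925309, minus strand): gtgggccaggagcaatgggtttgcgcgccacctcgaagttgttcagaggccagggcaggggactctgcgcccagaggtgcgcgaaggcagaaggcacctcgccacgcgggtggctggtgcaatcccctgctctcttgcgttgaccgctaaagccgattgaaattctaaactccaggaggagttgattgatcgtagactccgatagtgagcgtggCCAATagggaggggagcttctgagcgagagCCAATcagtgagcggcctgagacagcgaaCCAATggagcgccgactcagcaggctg
A CCAAT box was present in 8 of the 11 windows and in 37.4% of all 32851 windows of this length, so its presence is common.

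Phgdh, the phosphoglycerate dehydrogenase that opens the pathway, and Psph, the phosphatase that closes it, had lower means in RaptorKO but did not pass the test. Phgdh read 6.88, 7.03, 6.67 and 6.85 in RaptorKO 1 to 4, against 7.18, 7.26, 7.05 and 7.02 in WT 1 to 4. Only RaptorKO 2 and WT 4 crossed, by a small margin. The difference was -0.27 (SE 0.11, 95% interval -0.51 to -0.033, adjusted p = 0.298), with -0.26 in the first array set and -0.28 in the second. The other Phgdh probe set differed by -0.21. Psph read 7.05, 7.17, 6.85 and 6.58 in RaptorKO 1 to 4, against 7.36, 7.11, 7.39 and 7.15 in WT 1 to 4. The 2 lowest values were RaptorKO 3 and 4, while RaptorKO 2 lay above WT 2 and WT 4. Its difference was -0.34 (SE 0.14, 95% interval -0.64 to -0.043, adjusted p = 0.298), with -0.12 in the first array set and -0.56 in the second, a gap that did not pass (-0.44, limma adjusted p = 0.47). Averaged over the 3 enzymes as deviation from each gene's mean, the serine arm stood at -0.092, 0.019, -0.37 and -0.37 in RaptorKO 1 to 4 and at 0.30, 0.20, 0.20 and 0.11 in WT 1 to 4. RaptorKO 3 and 4 were thus the lowest arrays of the arm. These 2 arrays also had the highest myeloid means (6.10 and 6.12) and the lowest CD8 marker means (6.18 and 6.08). The other arrays did not all keep that order. WT 1, the highest array of the arm, had the lowest myeloid mean (4.89) but the next lowest CD8 mean (6.32). WT 3 and 4 had higher myeloid means (5.71 and 5.67) than RaptorKO 1 and 2 (5.42 and 5.58), and higher arm values. A link between these markers and the arm was not tested. Over the 8 arrays Psat1 followed Phgdh with a Pearson r of 0.91 and Psph with 0.85, values that include the genotype difference the genes share.

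The folate enzymes had higher means in RaptorKO, and none of the 3 passed the test. Shmt1, the cytosolic serine hydroxymethyltransferase, read 8.44, 8.32, 8.31 and 8.39 in RaptorKO 1 to 4, against 8.16, 8.30, 8.005 and 8.12 in WT 1 to 4. The lowest RaptorKO array was just above the highest WT array. The means were 8.37 ± 0.059 in RaptorKO and 8.15 ± 0.12 in WT (SD, n = 4 each), a difference of 0.22 (SE 0.098, 95% interval 0.0065 to 0.43, adjusted p = 0.362). Shmt1 had 4 probe sets, all with a higher mean in RaptorKO, by 0.16 to 0.37. The largest of these differences came from a probe set that read 7.87, 7.92, 7.69 and 7.74 in RaptorKO 1 to 4, against 7.601, 7.40, 7.43 and 7.33 in WT 1 to 4. There too the groups did not overlap, but the test over all probe sets did not pass (adjusted p = 0.157).

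Mthfd1, the cytosolic enzyme that carries several folate interconversions on one protein, read 7.86, 8.09, 7.72 and 7.78 in RaptorKO 1 to 4, against 7.77, 7.51, 7.61 and 7.74 in WT 1 to 4. RaptorKO 2 was the highest array, RaptorKO 3 lay within the WT range, and the difference of 0.21 (SE 0.11, 95% interval -0.037 to 0.45) did not pass (adjusted p = 0.485). Its other probe set differed by 0.086. Shmt2, the mitochondrial hydroxymethyltransferase, read 7.55, 7.70, 7.11 and 7.23 in RaptorKO 1 to 4, against 7.17, 7.10, 7.32 and 7.47 in WT 1 to 4. Both RaptorKO arrays were above both WT arrays in the first array set (0.49) and below them in the second (-0.23), an opposite order that 8.88% of the tested genes showed, which left 0.13 over all 8 arrays (SE 0.14, 95% interval -0.18 to 0.45, adjusted p = 0.798). The difference between the sets had an unadjusted p of 0.00353 and did not pass over all genes (limma interaction -0.72, adjusted p = 0.334); 0% of the tested genes passed that interaction, and 11.4% had an unadjusted p under 0.05. The other 2 Shmt2 probe sets were also highest in RaptorKO 1 and 2 (6.76 and 6.64 in one, 5.75 and 5.72 in the other) and differed by 0.11 and 0.13 over all arrays. Neither had both RaptorKO arrays below both WT arrays in the second set: one read 6.02 and 6.236 in RaptorKO 3 and 4, against 6.33 and 6.232 in WT 3 and 4, and the other 5.47 and 5.60 in RaptorKO 3 and 4, against 5.51 and 5.48 in WT 3 and 4. The full opposite order was thus seen in 1 of the 3 Shmt2 probe sets. The probe set that read 6.02 in RaptorKO 3 missed it only because RaptorKO 4 and WT 4 were nearly equal. Shmt2 and Mthfd1 varied together over the 8 arrays (Pearson r of 0.78), while Shmt2 and Psat1 did not (Pearson r of 0.0077).

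**Figure D2:**
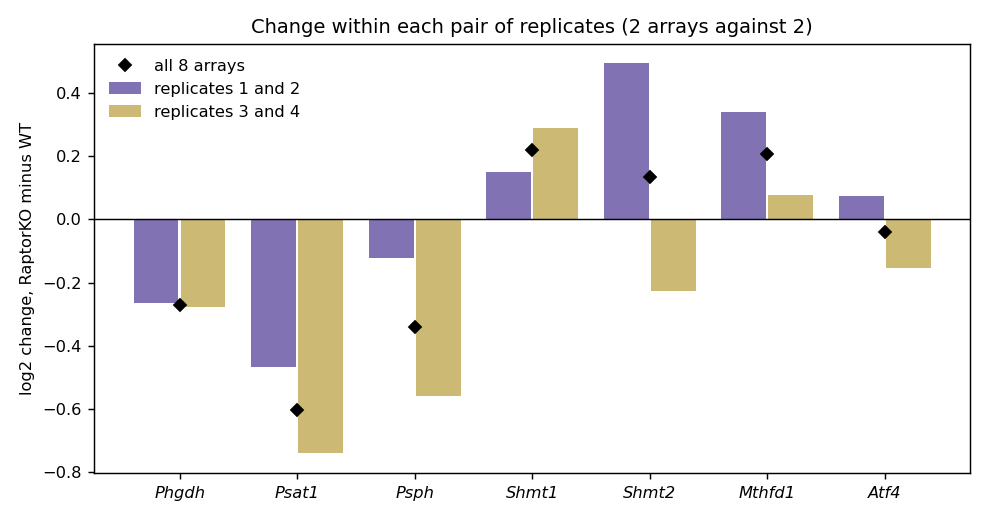
Log2 change (RaptorKO minus WT) of the 7 tested genes within replicates 1 and 2 and within replicates 3 and 4 (bars, 2 arrays against 2, no error drawn) and over all 8 arrays (diamonds). The serine enzymes are below 0 in both sets, Shmt1 and Mthfd1 above 0 in both, and Shmt2 and Atf4 have opposite signs in the 2 sets.

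Across all single-gene probe sets of these genes, 15 passed the filter on dim signal, 5 with a lower and 10 with a higher mean in RaptorKO. Every probe set of a gene had the same sign except those of Atf4. When all 27343 probe sets over the filter were tested, 0 of the 15 passed, against 1.11% of all. The groups did not overlap for 3 of the 15, against 8.07% of all probe sets.

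**Figure D3:**
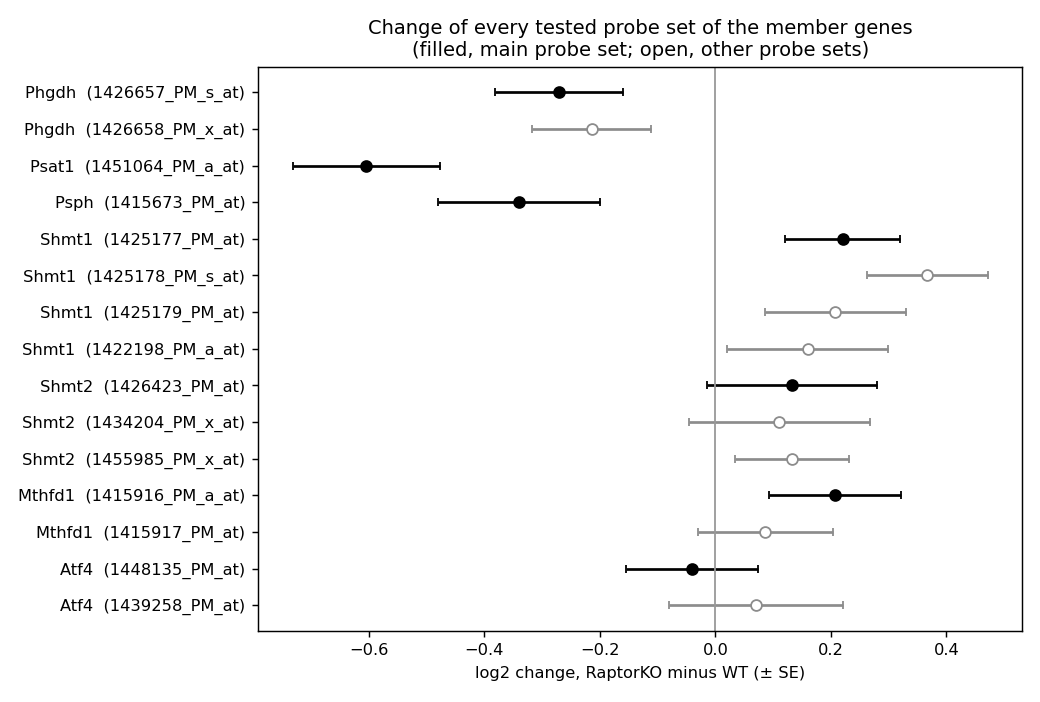
Log2 change (RaptorKO minus WT, with SE from the limma fit over all probe sets) of the 15 tested probe sets, filled for the probe set that represents its gene and open for the others. All probe sets of the serine enzymes lie left of 0 and all of the folate enzymes right of 0.

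The Atf4 transcript itself did not differ by the test. It read 8.76, 8.8, 8.90 and 8.76 in RaptorKO 1 to 4, against 8.82, 8.59, 9.03 and 8.93 in WT 1 to 4. The RaptorKO values lay inside the WT range, with a difference of -0.040 (SE 0.11, 95% interval -0.28 to 0.20, adjusted p = 0.936). A second Atf4 probe set differed by 0.070. The arrays measure mRNA, and the translation by which ATF4 is mainly controlled was not measured.

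Asns, the asparagine synthetase, and Chac1, which degrades glutathione, are classical ATF4 targets, and both were dim. Asns read 3.61, 4.22, 3.92 and 4.10 in RaptorKO 1 to 4, against 3.79, 3.87, 3.68 and 4.12 in WT 1 to 4. Chac1 read 4.32, 4.02, 4.32 and 4.07 in RaptorKO 1 to 4, against 4.31, 4.76, 4.27 and 4.37 in WT 1 to 4. All of these values were under the 40th percentile of their own array, so neither gene was tested in the main fit and no fold change is given. With no filter, Asns differed by 0.096 (limma adjusted p = 0.916) and Chac1 by -0.24 (limma adjusted p = 0.582), both measured in dim signal.

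The promoters of these 2 genes are shown because they were the only ones among the 10 genes to hold the C/EBP-ATF core, which was present in 3.97% of all windows. Capitals mark the match, which lies on the gene's own strand in Asns, 23 bases before the start, and on the opposite strand in Chac1, 193 bases before it.
Asns promoter (chr6:7693160-7693459, minus strand): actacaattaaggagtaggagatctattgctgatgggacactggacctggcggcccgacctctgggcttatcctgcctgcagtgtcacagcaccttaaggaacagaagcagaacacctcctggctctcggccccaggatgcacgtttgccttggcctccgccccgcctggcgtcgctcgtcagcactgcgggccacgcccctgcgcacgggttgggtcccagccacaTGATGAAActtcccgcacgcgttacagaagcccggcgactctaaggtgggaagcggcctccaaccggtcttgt
Chac1 promoter (chr2:119350992-119351291, plus strand): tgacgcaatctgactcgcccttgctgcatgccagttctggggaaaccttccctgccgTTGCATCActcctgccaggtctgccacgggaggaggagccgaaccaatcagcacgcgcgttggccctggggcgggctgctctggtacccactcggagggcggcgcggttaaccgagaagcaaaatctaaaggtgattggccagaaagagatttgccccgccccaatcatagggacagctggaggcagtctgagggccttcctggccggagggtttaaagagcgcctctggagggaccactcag
The antioxidant core was present in the Asns, Phgdh and Psph windows and in 12.4% of all windows, and the cAMP response element in none of the 11 windows and in 1.79% of all. A match describes letters and not a bound site.

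Around the 10 genes, 109 further genes of 6 lists were followed: regulators of the integrated stress response, other ATF4 targets, other folate genes, the methionine cycle, glutathione, and the use of asparagine, aspartate and serine. Of these, 90 had a single-gene probe set and 73 were tested; 0 changed in either direction by limma at an adjusted p under 0.05, against 1.96% of all tested genes, and 9 had an unadjusted p under 0.05, a share close to the 13% of all tested genes. The median change of the 73 was -0.019. The groups did not overlap for 4 of the 73 (Sesn2, Ddit3, Gldc and Serinc3), against 8.82% of all tested genes.

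Other ATF4 targets had lower means in RaptorKO for 15 of 20 tested genes, with a median change of -0.14, and 0 passed the test. The median over all tested genes was -0.0092. This count depends on the list: Ddit3, Cebpg, Cebpb and Atf5 were placed with the regulators of the integrated stress response. Their means were higher in RaptorKO (by 0.28, 0.29, 0.13 and 0.023), while 7 of the 18 tested regulators had lower means. The filter left out Jdp2, given below. Among the 20 genes the smallest p was that of Sesn2, a stress-induced inhibitor of mTORC1 signalling. The probe set that represents it read 5.86, 5.74, 5.83 and 6.00 in RaptorKO 1 to 4, against 6.44, 6.56, 6.15 and 6.02 in WT 1 to 4. The groups did not overlap, and RaptorKO 4 and WT 4 were nearly equal (-0.44, SE 0.13, adjusted p = 0.134; -0.70 in the first array set and -0.17 in the second). A second Sesn2 probe set read 5.44, 5.54, 4.82 and 4.97 in RaptorKO 1 to 4, against 6.44, 6.60, 6.29 and 6.35 in WT 1 to 4. There the separation was wide, and it passed the test over all probe sets (-1.23, SE 0.16, adjusted p = 0.00623). With the mean of both probe sets, Sesn2 was lower by 0.83 on the log2 scale and passed (limma adjusted p = 0.00371).

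Aars, the alanyl-tRNA synthetase, read 7.06, 7.36, 6.69 and 6.53 in RaptorKO 1 to 4, against 7.38, 7.41, 7.59 and 7.35 in WT 1 to 4. RaptorKO 2 overlapped the WT range (-0.52, SE 0.16, adjusted p = 0.16), the difference was -0.18 in the first array set and -0.86 in the second, and without RaptorKO 2 it passed (-0.67, adjusted p = 0.0313). Ddit4, Wars and Slc7a1, named after their values were seen, were the other ATF4 targets with an unadjusted p under 0.05. Ddit4, which encodes the mTORC1 inhibitor REDD1, read 10.30, 10.64, 9.78 and 9.75 in RaptorKO 1 to 4, against 10.98, 11.27, 10.33 and 10.46 in WT 1 to 4. It was higher in replicates 1 and 2 than in replicates 3 and 4 in both genotypes, and lower in RaptorKO within each set (-0.66 and -0.63). Its difference of -0.64 did not pass (SE 0.24, adjusted p = 0.244), but did with a term for the 2 sets (SE 0.11, adjusted p = 0.0142). Wars, the tryptophanyl-tRNA synthetase, differed by -0.39 and did not pass (adjusted p = 0.188). Of the fits with a single array left out, it passed only without WT 2 (-0.52, adjusted p = 0.04). Slc7a1, a cationic amino acid transporter, differed by 0.28 (adjusted p = 0.343).

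A further ATF4 target, Jdp2, an AP-1 family repressor named after its values were seen, was dim in WT and did not pass the filter. It read 5.10, 5.50, 4.74 and 5.31 in RaptorKO 1 to 4, against 3.74, 3.98, 4.22 and 4.10 in WT 1 to 4. RaptorKO was over the 40th percentile on 3 of 4 arrays and WT on 0 of 4, and with no filter the difference passed (1.15, adjusted p = 0.00399), measured against dim signal.

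**Figure D4:**
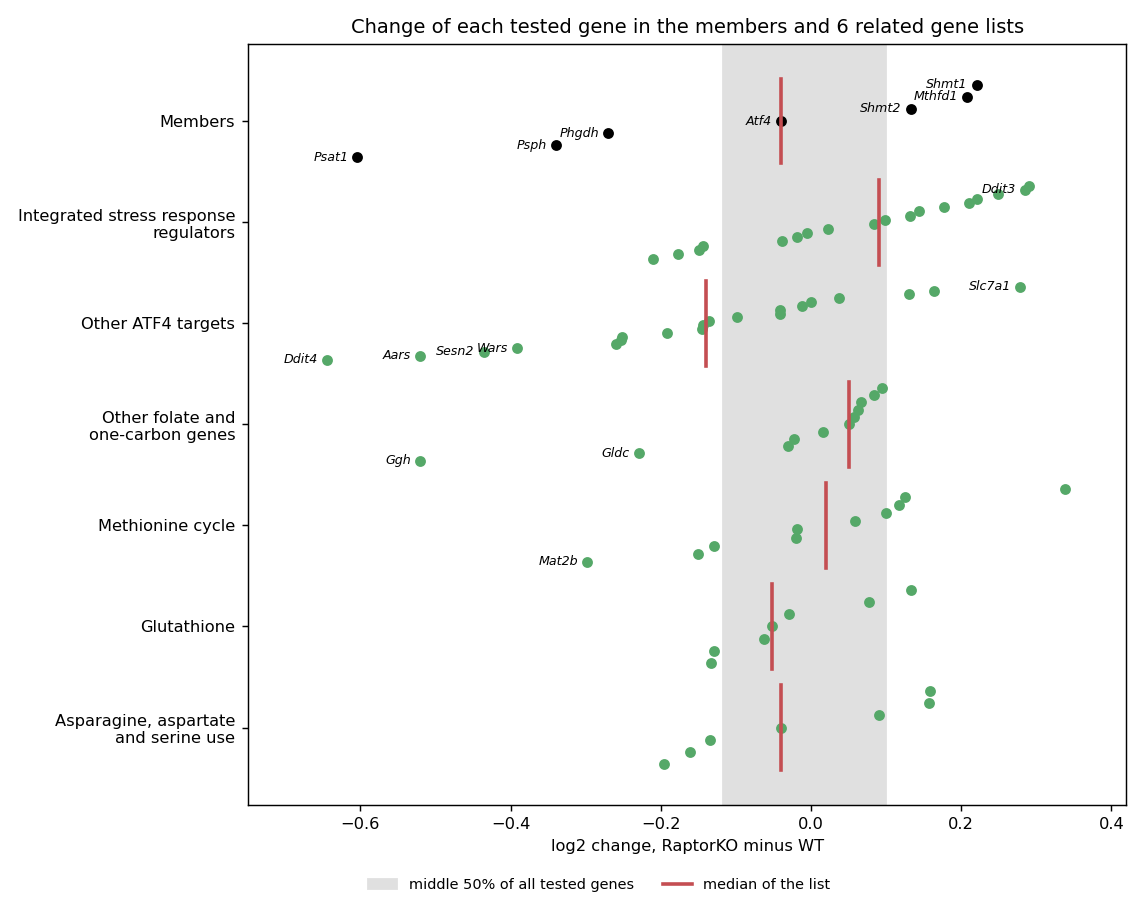
Log2 change (RaptorKO minus WT) of each tested gene among the 10 genes (black) and in the 6 related lists (green), with the median of each row in red and the interquartile range of all tested genes, -0.12 to 0.10, in grey. Outside the top row, names are given for genes with an unadjusted p under 0.05. The genes listed as other ATF4 targets lie mostly left of 0, and Ddit3 is shown in the row of stress response regulators.

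The regulators of the integrated stress response had higher means in RaptorKO for 11 of 18 tested genes (median 0.091). Ddit3, the stress-induced factor CHOP, read between 7.73 and 8.03 in RaptorKO and between 7.56 and 7.70 in WT, without overlap (0.28, SE 0.098, adjusted p = 0.204). Nfe2l2, the antioxidant regulator NRF2, differed by 0.22 (adjusted p = 0.433). Of the other folate genes, 7 of 11 were higher by their means (median 0.050); Ggh, which trims folate polyglutamates, differed by -0.52 (adjusted p = 0.249) and Gldc, of the glycine cleavage system, by -0.23 (adjusted p = 0.355). In the methionine cycle (5 of 10 higher, median 0.020), Mat2b differed by -0.30 and Mtrr by 0.34. Glutathione genes (2 of 7 higher, median -0.052) included Gpx1 at -0.13 and Gpx4 at 0.13. Genes using asparagine, aspartate and serine (3 of 7 higher, median -0.040) included the serine incorporator Serinc3 at -0.16 and the serine racemase Srr at 0.16. None of these genes passed the test.

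The genes most like Psat1 over the 8 arrays were Vps4a (Pearson r of 0.98), Ifi47 (0.98) and Mxd4 (0.98), each also lower in RaptorKO by its mean (-0.35, -0.44 and -0.95). Ifi47 and Mxd4 passed the test (adjusted p = 0.0472 and 0.003) and Vps4a did not (adjusted p = 0.103). For Atf4 they were Clk3, Sgo1 and H3c1 (Pearson r of 0.96, 0.95 and 0.95), which differed by -0.0093, -0.087 and -0.040. They are the highest correlations among all tested genes, leaving out predicted and clone-named ones, over the same 8 arrays, and are given as a description.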

How the data were processed

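The data are single-channel arrays, 4 RaptorKO and 4 WT. Group and replicate number come from the sample titles, and nothing in the labels ties the 4 samples of either genotype to different animals. Xist was high in replicates 1 and 2 and low in replicates 3 and 4 of either genotype, so the 2 array sets came from different animals. The 2 samples of a genotype within a set may still be technical repeats. The p-values therefore reflect only sample-to-sample spread, which is possibly technical within a set. The deposited values are log2 intensities per probe set that the authors made by RMA (named in the submitters' processing notes; version not given in the sources used here). RMA includes quantile normalization, which can hide a shift of all genes together. Array medians lay between 5.21 and 5.29, and the values were used as they are. Precision is limited by how many arrays there are.

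Of 45141 probe sets, 28898 had a single gene in the platform annotation, and 28689 of them were given current symbols from RefSeq (GRCm38.p6) through Entrez identifiers. A further 551 listed several genes and 15692 listed none. Of 17097 genes, 11413 were tested. The test was limma 3.58.1 in R 4.3.3 (lmFit, eBayes, no covariates), with Benjamini-Hochberg adjustment over all genes tested; every limma p for a single gene comes from that fit unless another is named. The 10 genes, the related lists, the array sets and the alternatives were chosen with earlier results of these data known. The rule named the 10 genes, of each list up to 4 changed genes or else the 2 with the smallest p, and the 3 genes most correlated with Psat1 and Atf4. The scripts were tested on simulated data. Plots used matplotlib 3.10.9 under Python 3.11.15.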

Additional observations from a re-analysis of the deposited data

Results flagged for a closer look

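Shmt2 stood out because its genotype difference had opposite directions in the 2 sets of arrays: both RaptorKO arrays were above both WT arrays within replicates 1 and 2, and below them within replicates 3 and 4. The difference between the sets was -0.72 (limma interaction, adjusted p = 0.334). Such an opposite order was found for 1014 of the 11413 tested genes, or 8.88%. Neither of the other 2 Shmt2 probe sets had that full order. In 1 of them both RaptorKO arrays were above both WT arrays within replicates 1 and 2. Within replicates 3 and 4 its RaptorKO 3 was lowest (6.02), and RaptorKO 4 (6.236) was nearly equal to WT 4 (6.232).

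Nfe2l2 had 1 RaptorKO array far from the others: RaptorKO 1 read 7.17, while the other 3 RaptorKO arrays lay between 6.96 and 6.99. Among 64 groups of 4 arrays examined this way, 1 was found, and chance gives about 1 in 20.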

How the results depend on the processing

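The count of genes that changed, 224, was 370 with an intensity trend, 7 with a 1.5-fold minimum, 9 within replicates 1 and 2 and 85 within replicates 3 and 4, and ranged from 101 to 257 when single arrays were left out. Among the 10 genes the count of 1 was 0 with the 1.5-fold minimum and within either set, and 0 to 1 with single arrays left out. Psat1 kept its sign in all 23 alternatives (-0.74 to -0.47) and passed in 13 of them. Over the 10 genes and the lists the count of 1 was 2 when probe sets of a gene were averaged, which added Sesn2, and 0 to 2 with single arrays left out. The median change of the tested genes was 0.073 within replicates 1 and 2, -0.23 within replicates 3 and 4 and -0.12 to 0.022 with single arrays left out. Atf4 changed sign in 3 alternatives (-0.15 to 0.073) and Shmt2 in 1, and neither passed in any. Same-numbered arrays had deviations correlated at 0.16, -0.15, 0.11 and 0.026. These weak correlations do not show whether replicate numbers pair the arrays, and by Xist the 2 array sets matched between the genotypes. With the replicate number as a block 175 genes changed, and Psat1 kept its call (-0.60, limma adjusted p = 0.0373). Ddit4, not called in the main fit, passed with that block (-0.64, SE 0.11, limma adjusted p = 0.0192). The number of arrays and dim signal (Asns, Chac1, Jdp2) limit what these values can show.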
